A study of Rattus norvegicus with 8 samples.

Results

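The 44 genes described here are those of glycolysis and of the response to low oxygen, measured in myelinating cultures of rat spinal cord. The group was given as a list of gene symbols. For each gene the array feature whose annotation held that symbol alone was taken, and a gene with several such features was read from the brightest on average. That average is the only measured value the selection used, but the list itself was drawn up with earlier results of these data known. All 44 were among the 14506 genes tested, and no filter on low values was applied. They fall into 4 transporters, 17 core enzymes from hexokinase to lactate dehydrogenase, 4 regulators of glycolytic flux, 4 genes of oxygen sensing, 4 enzymes of collagen modification and secretory-pathway oxidation, and 11 other genes induced by low oxygen.

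4 groups of Sprague-Dawley rat cultures were compared, with 2 Affymetrix Rat Gene 1.0 ST arrays in each: cultures given FGF9 (human fibroblast growth factor 9, which activates FGF receptor tyrosine kinases) at 100 ng/ml for 24 h, untreated control cultures at 24 h, cultures given FGF9 at the same dose for 10 days, and untreated control cultures at 10 days. The cultures were prepared from embryonic spinal cord and hold several cell types, so fewer cells of a type and less RNA per cell cannot be told apart in any value below. The source field of every sample names neurosphere-derived astrocytes, while the titles and the cell type label name myelinating cultures. Nothing in the labels says that the 2 arrays of a group came from separate cultures, so the p-values cover only array-to-array spread, which may be technical. Values are log2 signals as deposited, and one gene's level cannot be set against another's.

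Same-numbered FGF9 and control arrays at a time form a pair and share an array name prefix, with CL1 on pair 1 of 24 h, CL2 on both pair 2 of 24 h and pair 1 of 10 days, and AA1 on pair 2 of 10 days. What a prefix stands for is not given in the labels. The mean over 12 neuron markers at 10 days was 9.82 and 10.61 in FGF9 cultures, against 10.69 and 11.56 in control cultures. Over 9 oligodendrocyte markers it was 10.60 and 9.22 in FGF9 cultures, against 10.68 and 9.22 in control cultures, and over 10 astrocyte markers 11.15 and 11.39 in FGF9 cultures, against 11.32 and 11.06 in control cultures. All these list means lay above the 5th percentile of the arrays, which was 4.85 to 4.98, and the pairs differed in them within each condition.

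Glycolysis breaks glucose down to pyruvate, and lactate dehydrogenase turns pyruvate into lactate when mitochondria do not take it up. Hypoxia-inducible factors (HIFs) are transcription factors whose alpha subunits are hydroxylated by prolyl hydroxylases and degraded when oxygen is plentiful. When oxygen is low they accumulate and switch on most glycolytic enzymes together with genes of vessel growth, iron, pH and collagen handling. In the nervous system astrocytes are known for active glycolysis and for exporting lactate to neurons and oligodendrocytes.

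FGF9 differences among these genes passed the test at 10 days only, and which ones passed depended on the fit. At 10 days, with the pair as a block, 8 of the 44 genes rose and 0 fell at an adjusted p under 0.05 in limma. Of all 14506 genes, 6.43% passed in that fit, 3.12% as higher and 3.31% as lower. The 8 were Vegfa, Mgarp, Slc16a3, Plod2, Hk2, P4ha1, Epas1 and Egln1. They included 1 of the 17 core enzymes and 7 of the other 27 genes. With the name prefix as a random block 1 of the 44, Mgarp, and 1.04% of all genes passed (0.875% higher and 0.165% lower). Without a block 0 of the 44 and 0.0% of all genes passed at 10 days, where 5 of the 44 had an unadjusted p under 0.05, beside 5.63% of all genes. With the pair block 17 of the 44 had one, beside 24.0%. At 24 h 0 of the 44 and 0.0% of all genes passed in either fit. The FGF9 difference itself is the same with and without the block, and only its standard error changes.

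**Figure D1:**
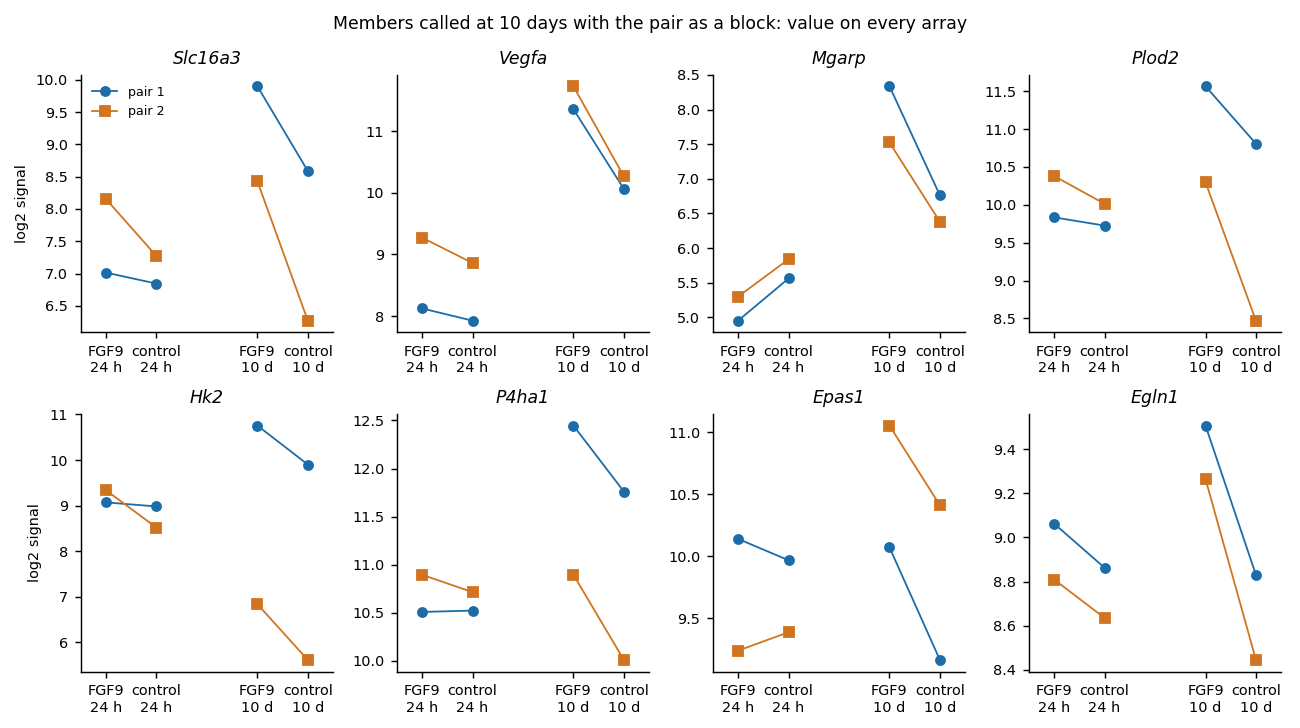
Log2 signal on every array of the 8 genes that passed at 10 days with the pair as a block. In each panel FGF9 stands left of control at 24 h and at 10 days, a line joins the 2 arrays of a pair, and circles and squares mark pair 1 and pair 2, which are different pairs at each time. Every 10-day line falls from FGF9 to control, while for Hk2, P4ha1, Plod2, Epas1 and Slc16a3 the distance between the 10-day control points is larger than the mean fall along the lines.

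After 24 h the group as a whole stood level. Of the 44 genes, 22 were higher and 22 lower, with a median difference of -0.01 log2 units beside 0.00 over all genes. In both pairs 17 were higher and 16 were lower, and over all genes these shares were 31.8% and 32.9%. The arrays of the groups did not overlap for 5 genes as higher and 11 as lower, beside 17.5% and 14.5% of all genes. The smallest adjusted p of any of the 44 was 0.9999 without the block, where 2 had an unadjusted p under 0.05, beside 1.93% of all genes. With the block it was 0.257, and 7 had one, beside 12.4%.

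Among the core enzymes at 24 h, Ldha, the muscle-type subunit of lactate dehydrogenase that favours lactate production, read 12.81 and 13.15 in FGF9 cultures, against 12.25 and 12.61 in control cultures. Both FGF9 arrays were above both control arrays, and the difference was 0.55 ± 0.36 (SE, n = 2 per group), with 0.304 as the block adjusted p in limma. Ldhb, its heart-type partner, read 10.17 and 10.54 in FGF9 cultures, against 10.53 and 11.04 in control cultures, which overlapped, and differed by -0.43 ± 0.42. Aldoc, the brain aldolase found in astrocytes, read 12.90 and 12.68 in FGF9 cultures, against 13.28 and 13.45 in control cultures, with both FGF9 arrays below both control arrays (-0.58 ± 0.22). Gapdh, which oxidises glyceraldehyde phosphate, differed by -0.05 ± 0.19 and Pgk1, which makes the first ATP of the pathway, by 0.19 ± 0.76. None of these passed. On the same arrays 9 of 10 astrocyte markers were lower (median -0.60), with a mean of 10.28 and 10.12 in FGF9 cultures, against 10.77 and 11.03 in control cultures, and their part in the Aldoc difference was not tested.

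Of the remaining genes at 24 h, Mgarp, a mitochondrial protein induced by low oxygen, read 4.95 and 5.30 in FGF9 cultures, against 5.56 and 5.84 in control cultures. Its FGF9 arrays lay below its control arrays and near the low end of the arrays, and the difference was -0.57 ± 0.32. Mxi1, a MYC antagonist, differed by -0.70 ± 0.24, Ndrg1, a stress-induced gene of glia and Schwann cells, by -0.63 ± 1.02, and Slc16a1, the lactate transporter MCT1 carried by oligodendrocytes, by -0.58 ± 0.31. Each was lower in both pairs and none passed. Of 9 oligodendrocyte markers 8 were lower on these arrays (median -0.54), and their part in the Slc16a1 and Ndrg1 differences was not tested. Vegfa, the vascular growth factor, read 8.12 and 9.27 in FGF9 cultures, against 7.93 and 8.86 in control cultures, which overlapped. Within pairs it was higher by 0.20 and 0.41.

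**Figure D2:**
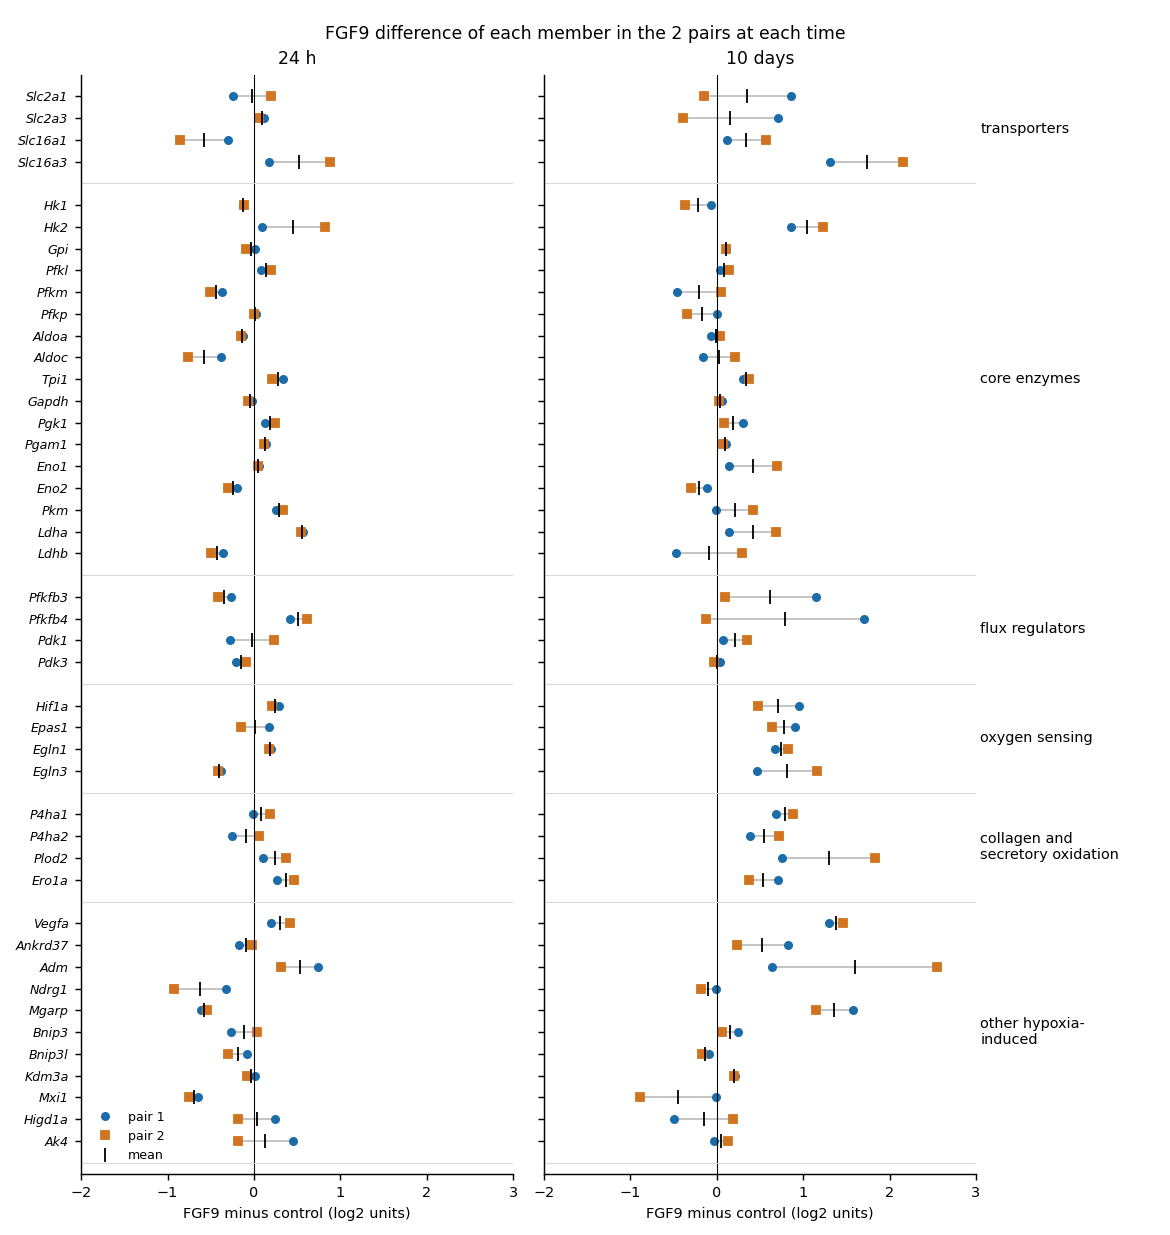
FGF9 minus control in log2 units for each of the 44 genes at 24 h (left) and at 10 days (right). Circles are pair 1, squares pair 2 and black bars their mean, with genes grouped by role. At 24 h the points scatter on both sides of 0, while at 10 days the oxygen-sensing and collagen genes stand to the right of 0 in both pairs and most core enzymes stay near it.

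After 10 days, 33 of the 44 genes were higher and 11 lower, with a median of 0.21 beside 0.02 over all genes. In both pairs 27 were higher and 6 were lower, beside 33.2% and 30.0% of all genes. For 9 genes both FGF9 arrays were above both control arrays and for 2 they were below, beside 14.9% and 11.3% of all genes. The 17 core enzymes had a median of 0.09, and the other 27 genes a median of 0.54. Of the core enzymes, 11 were higher and 6 lower, in a range of -0.22 to 1.04. Of the other 27, 22 were higher and 5 lower, in a range of -0.45 to 1.74. No test of the enzymes against the rest was made, since the genes were chosen with results known.

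Glucose and lactate transport showed its change in the exporter. Slc16a3, the monocarboxylate transporter MCT4 that carries lactate out of glycolytic cells and is a HIF target, read 9.90 and 8.43 in FGF9 cultures, against 8.59 and 6.27 in control cultures. The groups overlapped, but FGF9 was higher by 1.31 in pair 1 and by 2.16 in pair 2. The difference was 1.74 ± 0.87 without the block (adjusted p = 0.996, limma) and ± 0.26 with it (adjusted p = 0.0259). Slc2a1, the glucose transporter GLUT1 of astrocytes and vessels, read 12.69 and 11.62 in FGF9 cultures, against 11.83 and 11.77 in control cultures, and its pairs went opposite ways, 0.86 and -0.15. Slc2a3, the neuronal glucose transporter GLUT3, read 11.72 and 9.98 in FGF9 cultures, against 11.01 and 10.37 in control cultures and also split, 0.71 and -0.39. Slc16a1 differed by 0.34 ± 0.31. These 3 did not pass in either fit.

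Of the core enzymes, Hk2 alone passed with the block, and not in every fit. Hk2, the inducible hexokinase that traps glucose as its phosphate, read 10.76 and 6.84 in FGF9 cultures, against 9.90 and 5.62 in control cultures. The pairs lay about as far apart in FGF9 as in control cultures, and within each pair FGF9 was higher, by 0.86 and 1.22. Its difference of 1.04 had an SE of 1.66 without the block (adjusted p = 0.9999, limma), and with the block 0.21 (adjusted p = 0.0463). It did not pass with the random block (adjusted p = 0.582) or with the block under quantile normalization, where Plod2 and Epas1 did not pass either. Without 1 array its difference ran from -1.10 to 3.18. Hk1, the constitutive brain hexokinase, read 10.95 and 10.67 in FGF9 cultures, against 11.02 and 11.04 in control cultures. Its FGF9 arrays were both below its control arrays, with a difference of -0.22 ± 0.18 that did not pass.

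The other core enzymes differed by at most 0.42 in either direction, and none passed. Eno1, the widely expressed enolase, read 13.54 and 12.91 in FGF9 cultures, against 13.40 and 12.22 in control cultures and differed by 0.42 ± 0.41. Ldha read 13.29 and 12.89 in FGF9 cultures, against 13.15 and 12.20 in control cultures, a difference of 0.42 ± 0.36 that came mostly from pair 2 (0.69, against 0.14 in pair 1). Tpi1, triose phosphate isomerase, read 12.76 and 12.62 in FGF9 cultures, against 12.45 and 12.24 in control cultures, the 1 core enzyme whose FGF9 arrays were both above both control arrays (difference 0.34 ± 0.18, block adjusted p = 0.19, limma).

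Lower down the pathway, Pgk1 read 13.42 and 11.49 in FGF9 cultures, against 13.11 and 11.41 in control cultures, with a difference of 0.19 ± 0.76. Gapdh read 14.19 and 14.06 in FGF9 cultures, against 14.13 and 14.03 in control cultures and differed by 0.04 ± 0.19. Pfkp, the platelet-type phosphofructokinase, read 11.38 and 10.13 in FGF9 cultures, against 11.38 and 10.48 in control cultures and Ldhb 10.83 and 11.97 in FGF9 cultures, against 11.30 and 11.67 in control cultures; both overlapped, with differences of -0.17 and -0.09. Eno2, the neuronal enolase, was lower in both pairs (differences -0.12 and -0.30), on arrays where neuron markers were lower as well. The remaining 7 enzymes, Gpi, Pfkl, Pfkm, Aldoa, Aldoc, Pgam1 and Pkm, lay between -0.20 and 0.21.

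Of the regulators of flux, Pfkfb3 and Pfkfb4 were higher chiefly in pair 1. Pfkfb3, which makes the fructose bisphosphate that activates phosphofructokinase, read 10.997 and 10.12 in FGF9 cultures, against 9.85 and 10.02 in control cultures, without overlap and with pair differences of 1.14 and 0.10. Pfkfb4, its relative, split between the pairs, 1.70 and -0.12. Pdk1, the kinase that shuts off pyruvate dehydrogenase under HIF, read 10.12 and 9.78 in FGF9 cultures, against 10.05 and 9.42 in control cultures and differed by 0.21 ± 0.29, and Pdk3 differed by 0.00. None of the 4 passed in the fit over all arrays, and Pfkfb3 and Pfkfb4 passed with the block when pair 2 at 10 days was left out.

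All 4 oxygen-sensing genes were higher in both pairs at 10 days, with a median of 0.76, and 2 passed with the block. Egln1, the main prolyl hydroxylase that marks HIF alpha for destruction, read 9.51 and 9.26 in FGF9 cultures, against 8.83 and 8.44 in control cultures, with no overlap. Its difference was 0.75 ± 0.23 (SE, n = 2 per group; block SE 0.13, block adjusted p = 0.035, limma). Epas1, which encodes HIF-2 alpha, read 10.07 and 11.06 in FGF9 cultures, against 9.16 and 10.41 in control cultures, and the groups overlapped while FGF9 was higher by 0.91 and 0.64 in the pairs (block SE 0.15, adjusted p = 0.0445). Hif1a, which encodes HIF-1 alpha, read 11.76 and 11.43 in FGF9 cultures, against 10.81 and 10.96 in control cultures, without overlap, and differed by 0.71 ± 0.21 (block adjusted p = 0.0579). Egln3, the prolyl hydroxylase most strongly induced by HIF itself, read 11.10 and 11.21 in FGF9 cultures, against 10.64 and 10.04 in control cultures, also without overlap, and differed by 0.81 ± 0.23 (block adjusted p = 0.0643). Hif1a and Egln3 missed the threshold.

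The 4 enzymes that hydroxylate collagen or oxidise proteins in the secretory pathway were also higher in both pairs, with a median of 0.67. Plod2, a lysyl hydroxylase that sets collagen cross-links, read 11.57 and 10.30 in FGF9 cultures, against 10.81 and 8.47 in control cultures, higher by 0.76 and 1.83 in the pairs (block SE 0.26, adjusted p = 0.0453, limma). P4ha1, the catalytic subunit of collagen prolyl hydroxylase, read 12.45 and 10.89 in FGF9 cultures, against 11.76 and 10.01 in control cultures, higher by 0.69 and 0.89 (block SE 0.14, adjusted p = 0.0359). P4ha2, its second isoform, read 10.33 and 7.36 in FGF9 cultures, against 9.95 and 6.64 in control cultures, and Ero1a, which oxidises disulfide isomerase, was higher by 0.71 and 0.37. Neither of these passed. The mean over 8 fibroblast and pericyte markers moved with the pairs in the same way, 9.31 and 6.98 in FGF9 cultures, against 9.02 and 6.56 in control cultures. Of these markers 4 were higher and 4 lower (median 0.02). With the block 2 rose, Rgs5, a pericyte marker (difference 2.09, block adjusted p = 0.0107) and Cspg4, carried by pericytes and oligodendrocyte precursors (1.70, adjusted p = 0.0143), while Pdgfrb, another pericyte marker, differed by -0.78 (adjusted p = 0.0542). What these cells contribute to the collagen enzymes was not tested.

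The 11 other low-oxygen genes did not move together. Vegfa read 11.36 and 11.73 in FGF9 cultures, against 10.06 and 10.27 in control cultures, with both FGF9 arrays above both control arrays and similar differences in the pairs, 1.30 and 1.46. Its difference was 1.38 ± 0.47 (SE, n = 2 per group), a ratio of 2.6 to 1, with a block SE of 0.14 (adjusted p = 0.0173, limma; 0.766 without the block). Mgarp read 8.34 and 7.52 in FGF9 cultures, against 6.76 and 6.38 in control cultures, again without overlap. Its difference was 1.36 ± 0.32, with adjusted p = 0.0178 in limma with the block and 0.538 without it.

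Adm, which encodes the vasodilator adrenomedullin, read 10.60 and 10.23 in FGF9 cultures, against 9.97 and 7.68 in control cultures. The groups did not overlap, yet the pairs disagreed in size (0.64 and 2.55), and the difference of 1.59 ± 0.96 did not pass (block adjusted p = 0.0835, limma). Ankrd37, a small ankyrin protein induced through HIF, read 6.88 and 6.06 in FGF9 cultures, against 6.05 and 5.83 in control cultures, without overlap (difference 0.53 ± 0.37). Bnip3, a HIF-induced receptor for mitophagy, read 12.28 and 12.41 in FGF9 cultures, against 12.04 and 12.35 in control cultures and differed by 0.15 ± 0.23. Its relative Bnip3l, the chromatin demethylase Kdm3a, the mitochondrial proteins Higd1a and Ak4, and Ndrg1 differed by -0.15 to 0.20. Mxi1 had its FGF9 arrays below its control arrays (10.64 and 10.25, against 10.65 and 11.15), with a gap in pair 2 only. Vegfa, Mgarp and Slc16a3 were thus at least 1 log2 unit higher with FGF9 in both pairs. Pgk1, Pdk1, Bnip3, Bnip3l, Kdm3a, Higd1a, Ak4 and Ndrg1 each differed by at most 0.21 in either direction as a mean of the pairs. Single pairs could lie further out, as for Higd1a (-0.49 and 0.19). Their SEs without the block ran from 0.19 for Bnip3l to 1.02 for Ndrg1, so a larger change is not excluded. Both sets were sorted by these same differences.

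The FGF9 effect at 10 days minus that at 24 h was positive for 36 of the 44 genes, with a median of 0.26 beside 0.00 over all genes. This is a signed shift and not a count of effects that grew. The 36 include Aldoc (-0.58 at 24 h and 0.03 at 10 days) and Ndrg1 (-0.63 and -0.10), whose effects shrank in size. Mgarp showed the widest change, with -0.57 ± 0.32 at 24 h and 1.36 ± 0.32 at 10 days, and a difference of effects of 1.93 ± 0.46 (block adjusted p = 0.109, limma). Slc16a3 and Egln3 both had a difference of effects of 1.21, and Vegfa of 1.08. None of the 44 passed in either fit, where 0.0% of all genes did so without a block, 0.0483% with the pair block and 0.0276% with the random block. So a change of the effect between the times is not shown for any single gene of the 44.

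Promoters were searched for the core letters of the hypoxia response element, the site that HIF binds. The letters were ACGTG and GCGTG on both strands, within 250 bases before the first start that RefSeq lists for each gene on the rat build GRCr8, and overlapping matches were each counted. Of 39 of the 44 genes with a promoter in the table, 26 (66.7%) held at least 1 match, as did 37.9% of 27457 promoters and 47% of the 11951 promoters of tested genes. Core enzymes (62.5%) and the other genes (69.6%) were not tested against each other. The remaining 5 genes are Bnip3l, Ndrg1, Slc2a3, Pgk1 and Ero1a. Both motifs contain a CG step, and the median number of CG steps in the window was 18 for these genes, beside 12 for tested genes and 6 for all. Of the 8 genes that rose, 4 held a match, Mgarp, Plod2, P4ha1 and Egln1, a share near that of all tested genes, and their promoters are shown because these are the windows where the letters occur. Vegfa, Slc16a3, Hk2 and Epas1 held none in this window, which says nothing of sites elsewhere. Capitals mark each match, read 5′ to 3′ on the strand of the gene, where CACGT and CACGC are the same letters on the opposite strand.
Mgarp (chr2:137590295-137590544, - strand): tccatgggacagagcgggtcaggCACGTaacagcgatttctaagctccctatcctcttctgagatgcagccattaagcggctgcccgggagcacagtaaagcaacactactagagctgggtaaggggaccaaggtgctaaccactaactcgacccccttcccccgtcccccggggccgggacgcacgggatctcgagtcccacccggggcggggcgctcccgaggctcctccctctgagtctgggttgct
Plod2 (chr8:101964068-101964317, + strand): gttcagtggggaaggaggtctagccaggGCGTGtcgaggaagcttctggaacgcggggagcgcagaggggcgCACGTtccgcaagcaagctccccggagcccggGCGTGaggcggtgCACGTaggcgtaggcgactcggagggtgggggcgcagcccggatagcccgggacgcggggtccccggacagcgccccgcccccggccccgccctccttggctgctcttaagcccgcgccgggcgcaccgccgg
P4ha1 (chr20:27844796-27845045, + strand): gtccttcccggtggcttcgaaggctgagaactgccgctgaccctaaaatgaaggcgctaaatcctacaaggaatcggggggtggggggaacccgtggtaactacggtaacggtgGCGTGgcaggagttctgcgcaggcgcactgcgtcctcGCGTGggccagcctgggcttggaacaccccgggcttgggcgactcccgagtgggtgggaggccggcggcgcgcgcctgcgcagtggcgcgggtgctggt
Egln1 (chr19:69804682-69804931, - strand): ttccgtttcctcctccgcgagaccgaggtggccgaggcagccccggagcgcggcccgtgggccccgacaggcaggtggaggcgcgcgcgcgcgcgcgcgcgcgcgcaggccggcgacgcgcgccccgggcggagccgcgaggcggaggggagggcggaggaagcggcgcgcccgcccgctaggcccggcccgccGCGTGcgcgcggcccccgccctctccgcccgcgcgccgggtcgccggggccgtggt

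In these stretches Mgarp held 1 match and it lay 227 bases before the start. Plod2 held 4, at 222, 178, 146 and 133 bases, P4ha1 held 2, at 136 and 99 bases, and Egln1 held 1, at 56 bases. A match describes the letters and not binding. Plod2 and P4ha1, with several matches, differed by 1.29 and 0.79 at 10 days. Among other genes with 4 matches, Ankrd37 differed by 0.53, Ldha by 0.42, Slc2a1 by 0.35 and Bnip3 by 0.15. With 5 matches, P4ha2 differed by 0.55 and Pdk3 by 0.00.

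Between the pairs these genes differed widely at 10 days in both conditions. Among control arrays the gap between pair 2 and pair 1 passed 1 log2 unit for 12 of the 44 genes, 10 of them lower and 2 higher in pair 2, beside 19.4% of all genes. Among FGF9 arrays it did so for 13, beside 17.2% of all genes. The gap was -3.92 in FGF9 cultures and -4.28 in control cultures for Hk2, -2.98 in FGF9 cultures and -3.31 in control cultures for P4ha2 and -1.93 in FGF9 cultures and -1.71 in control cultures for Pgk1. Ak4, a mitochondrial adenylate kinase, ran the other way, 1.38 in FGF9 cultures and 1.22 in control cultures. For 38 of the 44 genes the gap had the same sign in FGF9 and control arrays. The control gap was larger than the FGF9 difference for 34 of the 44. The shares over all genes were not counted for either, and same-numbered arrays deviated together across all genes (correlation 0.819). The median absolute control gap was 0.64 for the 44 genes and 0.40 for all genes.

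**Figure D3:**
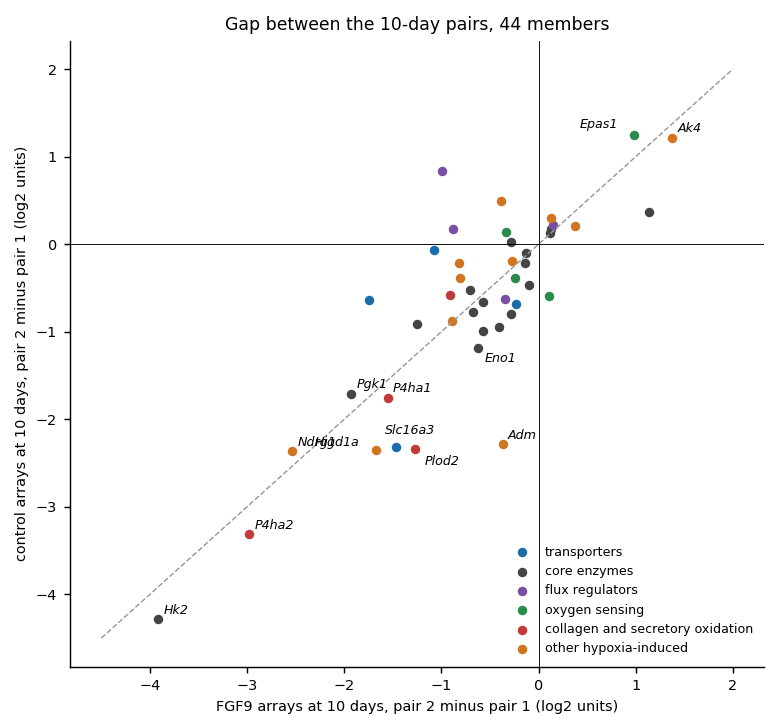
Gap between the 10-day pairs (pair 2, prefix AA1, minus pair 1, prefix CL2) in log2 units for the 44 genes, in FGF9 arrays along the horizontal axis and in control arrays along the vertical axis, coloured by role. The dashed line marks equal gaps. Hk2 and P4ha2 lie at the lower left, near the line, and Adm lies well below it because its gap was -0.37 in FGF9 cultures and -2.29 in control cultures.

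At 24 h, where the pairs carry prefixes CL1 and CL2, the control gap passed 1 log2 unit for 3 of the 44 genes, beside 6.54% of all genes. The FGF9 differences given above are within-pair values, so each compares arrays of 1 prefix. With the AA1 pair left out, 5 of the 44 passed with the block at 10 days, Vegfa, Mgarp, Hif1a, Pfkfb3 and Pfkfb4, beside 3.92% of all genes. With the CL2 pair left out, 10 passed, among them 7 of the 8, beside 10.4% of all genes. Mxi1 was among these 10 and was lower with FGF9 in the AA1 pair (-0.89). The lone pair is assumed in these fits to vary like the pairs at 24 h. Vegfa and Mgarp were the 2 that passed at 10 days in each of the 10 fits with a fixed block that were run.

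Untreated cultures were compared between the times as well. The prefix CL2 is shared by a control array of each time, and between them 39 of the 44 genes were higher at 10 days, with a median of 0.54 log2 units beside 0.00 over all genes. Of the 44, 7 were higher by over 1 log2 unit and 0 lower by that much, beside 1.11% and 1.63% of all genes. The 7 were Slc16a3 (1.32), Hk2 (1.38), Pdk1 (1.11), P4ha1 (1.05), P4ha2 (1.32), Vegfa (1.20) and Higd1a (1.14). The median was 0.92 for the collagen and secretory enzymes, 0.87 for the other low-oxygen genes, 0.81 for the transporters and 0.27 for the core enzymes. This is 1 array against 1, with no replicate check.

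**Figure D4:**
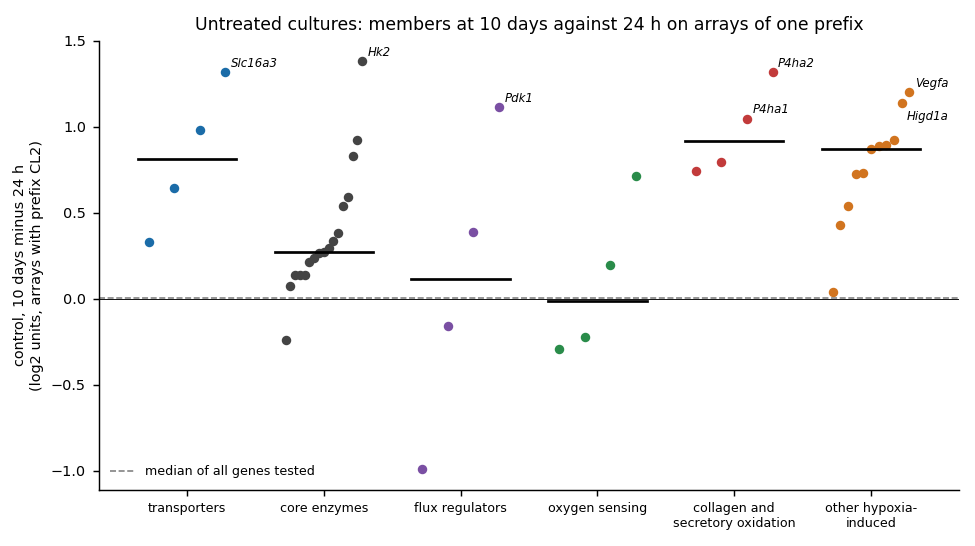
Control culture at 10 days minus control culture at 24 h, in log2 units, on the 2 control arrays with prefix CL2, for the 44 genes by role. Black bars are group medians and the dashed line is the median of all genes tested. Points of the transporters, the collagen and secretory enzymes and the other low-oxygen genes all lie above 0, while Pfkfb4 lies at -0.99.

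With all 4 control arrays, 33 of the 44 genes had a higher mean at 10 days, with a median of 0.26 beside 0.00 over all genes. The median was then 0.21 for the collagen and secretory enzymes and 0.52 for the other low-oxygen genes. It was 0.41 for the transporters and 0.21 for the core enzymes. Of the 44 genes, 17 had both 10-day arrays above both 24 h arrays and 3 had them below, beside 13.8% and 13.6% of all genes. Among the 17, Vegfa was higher at 10 days by 1.77 ± 0.47, Ak4 by 2.30 ± 0.77, Bnip3 by 1.14 ± 0.23 and Slc2a1 by 1.04 ± 0.39. The Hk2 mean was lower at 10 days (-0.99 ± 1.66), with 9.90 and 5.62 at 10 days, against 8.98 and 8.52 at 24 h, so that 1 array lay above both 24 h arrays and 1 below. Without the block no gene passed in this comparison, with 0.0% of all genes called. Prefix and time are partly confounded in it. With the pair block, which does not remove differences between pairs from this contrast, 6.42% of all genes passed. Of the genes named here, Vegfa, Ak4 and Bnip3 passed in that fit, and Slc2a1 and Hk2 did not.

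Other genes that HIF is known to induce were counted from a separate list. Of 39 listed genes 34 were measured, and 26 were higher and 8 lower with FGF9 at 10 days, with a median difference of 0.50 (0.32 in pair 1, 0.58 in pair 2). With the block 6 rose and 0 fell, and without it 0 passed. Car9, the cell-surface carbonic anhydrase that is a standard marker of low oxygen, read 10.12 and 9.07 in FGF9 cultures, against 5.81 and 5.28 in control cultures, and 5.44 and 5.99 in FGF9 cultures, against 5.52 and 5.50 in control cultures at 24 h. Its difference at 10 days was 4.05 ± 0.40 (block adjusted p = 0.00413, limma). Neither control signal at 10 days passes the highest of the 24 h arrays, and the values do not show whether they lie above background, so this difference may be a lower bound. Others that rose were Plin2, a lipid droplet coat protein (1.39 ± 0.25, block SE), Fam13a (0.95 ± 0.15) and Vldlr, a lipoprotein and reelin receptor (0.89 ± 0.16). At 24 h 17 were higher and 17 lower.

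Among 12 other regulators of HIF, 7 were higher and 5 lower at 10 days (median 0.05), and 0 passed. Hif3a, an inhibitory alpha subunit, differed by 1.18 ± 0.27 (block SE, adjusted p = 0.0579, limma). Vhl, which recognises hydroxylated HIF, differed by 0.93 ± 0.25 (block SE, adjusted p = 0.0851, limma). Of 16 measured glycolytic isoenzymes and side enzymes outside the 44, 12 were higher and 4 lower (median 0.13). Adpgk, an ADP-dependent glucokinase, was the 1 of these that passed with the block (0.77 ± 0.16, block SE, adjusted p = 0.0476, limma). Slc16a7, the high-affinity lactate importer MCT2 of neurons, was lower in both pairs (differences -0.46 and -1.01, block adjusted p = 0.0624, limma).

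Markers of the culture's cell types differed on the same arrays. With FGF9 at 10 days all 12 neuron markers were lower (median -0.93), 9 of them passing with the block, and 10 of 11 cell cycle genes were higher (median 1.09). Astrocyte markers had a median of -0.03 (range -0.87 to 1.29) and oligodendrocyte markers of 0.13 (range -0.95 to 0.71). Of 10 astrocyte markers 5 were higher and 5 lower, and Fgfr3 alone passed with the block (1.29, adjusted p = 0.0220, limma). Microglia markers had a median of -0.09, with -0.65 in pair 1 and 0.33 in pair 2. Endothelial markers, which bear on Vegfa and Epas1, had a mean of 5.82 and 5.56 in FGF9 cultures, against 6.24 and 5.24 in control cultures. These are low signals beside the median gene mean of 7.60. Their median difference was -0.12, in a range from -1.21 for Kdr to 1.44 for Flt1, with 0 of 7 passing. Flt1 was also counted among the other HIF targets. All 15 FGF-ERK feedback genes were higher (median 1.23), 12 of them passing with the block. The part of these shifts in the results for the 44 genes was not tested.

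8 of the 44 genes had more than 1 feature. Gapdh has many processed pseudogenes, so its features may not all read 1 gene. Gapdh had 16 features, whose differences at 10 days ran from -0.06 to 0.25. The 2 features of Egln1 gave 0.75 and 1.27, the 3 of Eno1 0.41 to 0.51, the 2 of Ldha 0.42 and 0.52, and the 3 of Mxi1 -0.45 to -0.28.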

How the data were processed

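Total RNA on 8 arrays was analysed. The log2 values were used as the authors deposited them, 1 per feature and array, and the log2 scale was read from their range (3.61 to 14.6). Per the submitters' processing notes Partek 6.5 and GCRMA were used; the order of steps is not given in the sources used here. Array medians were 6.62 to 6.73. Of 29214 features, 15310 had 1 symbol in the platform annotation, 323 several and 13581 none, which gave 14506 genes; 15279 of the 15310 were found in RefSeq by Entrez ID. For genes with several features the highest-mean feature was used. Arrays carry no read depth, so their number limits the precision.

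Differences were fitted with limma 3.58.1 in R 4.3.3 (lmFit, then eBayes) with a mean for each group over the 8 arrays, leaving 4 residual degrees of freedom. P-values were adjusted by Benjamini-Hochberg across the 14506 genes and called at 0.05. A further fit added the pair as a block, leaving 2. Deviations of same-numbered arrays from their group means had correlations across genes of 0.757 (24 h) and 0.819 (10 days), so the numbers were taken to pair the arrays, and block values stand beside results whose call they change. Errors are SEs without the block unless named. The fits were tested on simulated data. The 44 genes and all other lists were chosen with earlier results of these data known, so lists are described by counts and medians with no test. Every one of the 44 may be named. Array values are given for those that passed in either fit and for a fixed set of well-known ones, and of other lists at most 4 with the smallest block p at 10 days were named. Array values of Aldoc, Eno1, Tpi1, P4ha2 and Mxi1, and of Mgarp at 24 h, were added after they were seen. The promoters are RefSeq sequences on GRCr8, and no genome position is given for array features. Alternatives were other normalizations, a filter on dim genes (lowest 25% by mean left out), the mean over features, other variance models, a random block and leaving out arrays or pairs.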

Additional observations from a re-analysis of the deposited data

Results flagged for a closer look

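6 genes had both pairs on one side of 0 at 24 h and both on the other side at 10 days, each lower with FGF9 at 24 h and higher at 10 days. This pattern across the times is what singled them out. Over all genes 32.9% were lower in both pairs at 24 h and 33.2% were higher in both at 10 days. The share of all genes with both was not counted. The difference of effects (10 days minus 24 h, log2 units) was 1.93 for Mgarp, 1.21 for Egln3, 0.97 for Pfkfb3, 0.91 for Slc16a1, 0.62 for Ankrd37 and 0.0875 for Gapdh. The difference was tested as a contrast of the same limma fit and none passed. The block adjusted p ran from 0.109 for Mgarp to 0.889 for Gapdh, and without the block it was 0.9999 for each. Groups of 2 arrays are too small to look for a single array that stands apart.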

How the results depend on the processing

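Every alternative run kept the FGF9 differences of Vegfa, Mgarp, Slc16a3, Plod2, Epas1 and Egln1 at 10 days above 0, but leaving out 1 array moved Plod2 over 0.12 to 2.46, Epas1 over 0.15 to 1.40, Slc16a3 over 0.58 to 2.89, Mgarp over 0.95 to 1.77, Egln1 over 0.56 to 0.94 and Vegfa over 1.19 to 1.57, and turned Hk2 and P4ha1. For all genes at 10 days, 0 passed without the block, 6 with array medians subtracted, 151 with a random block and 933 with the replicate block. With the replicate block the count was 469 without either 24 h pair, 1506 without pair 1 and 569 without pair 2 at 10 days. Combined with the block in fits chosen after seeing the data, it was 957 with quantile normalization, 1062 with medians subtracted, 988 without dim genes, 925 with the mean over features and 1180 with a variance trend. Of the 44 genes, 1 passed with the random block (Mgarp), 8 with the block, 4 without either 24 h pair, 10 and 5 without pair 1 and pair 2 at 10 days, 5 with quantile normalization, 10 with a trend and 8 in the other combined fits. With the block and medians subtracted, Egln3 passed in place of Epas1. Other HIF targets that passed numbered 1 with the random block and 6 with the block. At 24 h, 237 genes passed with the block when either 10-day pair was left out, and 0 of the 44. For the difference of effects, 4 genes passed with the random block and 7 with the replicate block. The count for control cultures over time was 0, and 931 with the replicate block, which does not remove differences between pairs from this contrast, because the times share no pair. With ACGTG alone, 46.2% of the 39 promoters found for the 44 genes held a match, beside 16.9% of all promoters and 19.5% of those of tested genes. The median of the core enzymes was 0.031 at 10 days under quantile normalization and 0.056 at 24 h with medians subtracted, that of the other low-oxygen genes at 10 days was 0.12 with medians subtracted, 0.17 with the mean over features and 0.070 under quantile normalization, and that of the oxygen-sensing genes 0.70 under quantile normalization.

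Without each array in turn, which breaks a pair, medians at 10 days ran over 0.0195 to 0.96 for transporters, -0.21 to 0.28 for core enzymes, 0.67 to 0.81 for oxygen sensing, 0.0177 to 1.93 for collagen and secretory enzymes, 0.13 to 0.72 for flux regulators and 0.12 to 0.68 for the others. At 24 h these ran over -0.30 to 0.40, -0.15 to 0.13, -0.18 to 0.34, -0.12 to 0.53, -0.22 to 0.0476 and -0.36 to 0.0805 in the same order. The genes whose sign turned had ranges at 10 days of Ak4 -0.64 to 0.74, Aldoa -0.35 to 0.32, Aldoc -0.21 to 0.26, Bnip3l -0.27 to 0.00335, Eno1 -0.17 to 1.01, Eno2 -0.56 to 0.14, Gapdh -0.0214 to 0.11, Higd1a -1.33 to 1.02, Hk2 -1.10 to 3.18, Kdm3a -0.24 to 0.65, Ldha -0.0597 to 0.89, Ldhb -0.66 to 0.48, Ndrg1 -1.36 to 1.17, P4ha1 -0.0892 to 1.66, P4ha2 -1.11 to 2.21, Pdk1 -0.10 to 0.53, Pdk3 -0.11 to 0.11, Pfkl -0.30 to 0.48, Pfkm -0.60 to 0.20, Pfkp -0.80 to 0.45, Pgk1 -0.77 to 1.16, Pkm -0.29 to 0.70, Slc16a1 -0.00395 to 0.68, Slc2a1 -0.18 to 0.89, Slc2a3 -0.71 to 1.03, and at 24 h of Adm -0.41 to 1.47, Ak4 -0.69 to 0.95, Aldoa -0.32 to 0.0511, Ankrd37 -0.43 to 0.24, Bnip3 -0.36 to 0.13, Eno2 -0.61 to 0.11, Epas1 -0.44 to 0.46, Ero1a -0.12 to 0.86, Gapdh -0.16 to 0.0736, Gpi -0.21 to 0.13, Higd1a -0.23 to 0.29, Kdm3a -0.0869 to 0.0216, P4ha1 -0.11 to 0.28, P4ha2 -0.74 to 0.55, Pdk1 -0.27 to 0.23, Pfkp -0.56 to 0.58, Pgam1 -0.0437 to 0.29, Plod2 -0.0352 to 0.51, Slc16a3 -0.0429 to 1.10, Slc2a1 -0.33 to 0.28, Slc2a3 -0.36 to 0.53, Vegfa -0.27 to 0.88. Differences near 0 turned sign with medians subtracted for Aldoc at 10 days (-0.010), and at 24 h for Gapdh (0.0014), Gpi (0.011), Kdm3a (0.014), Pdk1 (0.027) and Slc2a1 (0.023). They did so under quantile normalization for Aldoc (-0.089) and Gapdh (-0.046) at 10 days and for Kdm3a (0.0078) and Pdk1 (0.0018) at 24 h, and with the mean over features for Gapdh at 24 h (0.0021). Low signals limit Mgarp at 24 h, Ankrd37, the AA1 control array of Hk2 and the Car9 control arrays, and 2 arrays a group limit every value.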

Other observations

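Pathways next to glycolysis were counted in the same way at 10 days of FGF9. Of 5 measured pentose phosphate enzymes 4 were higher (median 0.60), and none passed. Among the 4 were Tkt, transketolase (0.60 ± 0.14, block SE, adjusted p = 0.0571, limma) and Pgls, the lactonase (0.63 ± 0.16, block SE). Of 23 genes of pyruvate entry and the tricarboxylic acid cycle, 10 were higher and 13 lower (median -0.03) and 0 passed. Pdk4, a pyruvate dehydrogenase kinase induced by fasting, was lower in both pairs (differences -1.58 and -0.15) without passing, and differed by -1.17 at 24 h. Of 10 genes of gluconeogenesis and glycogen, Pygm, the muscle-type glycogen phosphorylase that astrocytes also carry, rose with the block. It read 9.63 and 10.51 in FGF9 cultures, against 8.38 and 7.95 in control cultures at 10 days, a difference of 1.90 ± 0.39 (block SE, adjusted p = 0.0481, limma), and differed by -0.72 at 24 h.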
